A study of Arabidopsis thaliana with 4 samples.

Results

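Genes that build, decorate and loosen the plant cell wall were followed in cut inflorescences of Arabidopsis thaliana, an organ rich in flower buds, when freshly cut and again once held for 24 h in darkness. They were taken by gene symbol, from 21 family prefixes: expansins and expansin-like proteins (EXPA, EXPB, EXLA, EXLB), xyloglucan transferases (XTH, EXGT), cellulose synthases and their relatives (CESA, CSLA to CSLE, CSLG), TBL and IRX proteins, pectin enzymes (GAUT, GATL, PME), wall glycoproteins (FLA, AGP) and SKU5-like proteins (SKS). The rule found 65 of the 13356 genes measured by name, and 37 of the 65 had a mean log2 signal of at least 5 over the 4 arrays and were judged. The RefSeq gene table (TAIR10.1) holds 253 genes whose symbols carry these prefixes. The EXLA family (3 genes) and the CSLC family (5 genes) were measured whole, whereas 10 of 24 EXPA, 9 of 30 XTH and 22 of 41 TBL genes were measured. CESA, CSLB, CSLE, CSLG, FLA, AGP and GATL genes were not analysed here, since no probe set was paired with one under such a symbol.

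Both groups came from 5 week old plants of ecotype Ler-0 with no transgene or mutation named, and were cut from primary bolts 11 h into a 16 h day. The group called T0 was frozen at once, and the group called T24 lay on wet paper in a closed black box at 21 °C for 24 h. Each had 2 arrays, titled biological replicates 1 and 2, with 10 inflorescences pooled per time point. Whether each array had a pool of its own is not given in the sources used here, so p-values cover the array-to-array spread, which may be technical. Cutting, darkness, separation from the plant's supply, the wet box and elapsed time coincide in T24 and cannot be told apart.

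A growing plant cell is held by a wall of cellulose fibrils set in xyloglucan, mannan, xylan and pectin. Expansins loosen contacts between these polymers without cutting them, and xyloglucan transferases cut and rejoin xyloglucan chains. The backbones of xyloglucan and mannan are made in the Golgi apparatus by CSLC and CSLA synthases, and TBL proteins add acetyl groups to the finished chains. In flower buds these activities serve the growth of sepals, petals, stamens and carpels, as well as the making and breaking of walls inside the anther.

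After 24 h, 4 of the 37 judged wall genes rose and 6 fell, while 27 did not pass (limma, adjusted p under 0.05 over all probe sets). The expansin-like gene EXLA1, the beta-expansin EXPB5, the xyloglucan synthase CSLC12 and the xyloglucan transferase EXGT-A3 rose by 2.81 to 3.59 on the log2 scale. The acetyltransferase TBL26, the mannan synthase family gene CSLA01 and the SKU5-like gene sks18 fell by 4.48 to 4.75, the expansin EXPB3 fell by 3.62 and EXPA15 fell by 3.49, and the xyloglucan enzyme XTH32 was 2.82-fold lower. For sks18, EXPB3 and CSLA01 the T24 signals lay under or close to the limit of 5. Those of TBL26 (5.78 and 5.33) and EXPA15 (5.47 and 6.10) were little higher, so the sizes of these falls are approximate. The rise of CSLC12, which read 5.43 and 5.67 at T0, is approximate too. No background level was estimated here. Over all 7920 genes with a mean of at least 5, 19.3% passed, 9.73% higher and 9.58% lower, against 27.0% of the wall genes; over all probe sets 13.2% passed. The median change of the wall genes was -0.14 on the log2 scale, against -0.05 for all genes judged in the same way; it was 0.01 with each array centred on its median and -0.49 without T24 replicate 1. Signals of T0 and T24 did not overlap for 26 of the 37 (70.3%), against 66.2% of all judged genes. With any 1 of the 4 arrays left out, 0 wall genes passed in limma, with 14 to 17 at an unadjusted p under 0.05. Centring each array on its median added 0.16 to every change; the 10 calls and their directions were the same, and 4 of the 27 genes that did not pass (TBL25, TBL45, CSLC04 and CSLC6) changed sign.

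**Figure D1:**
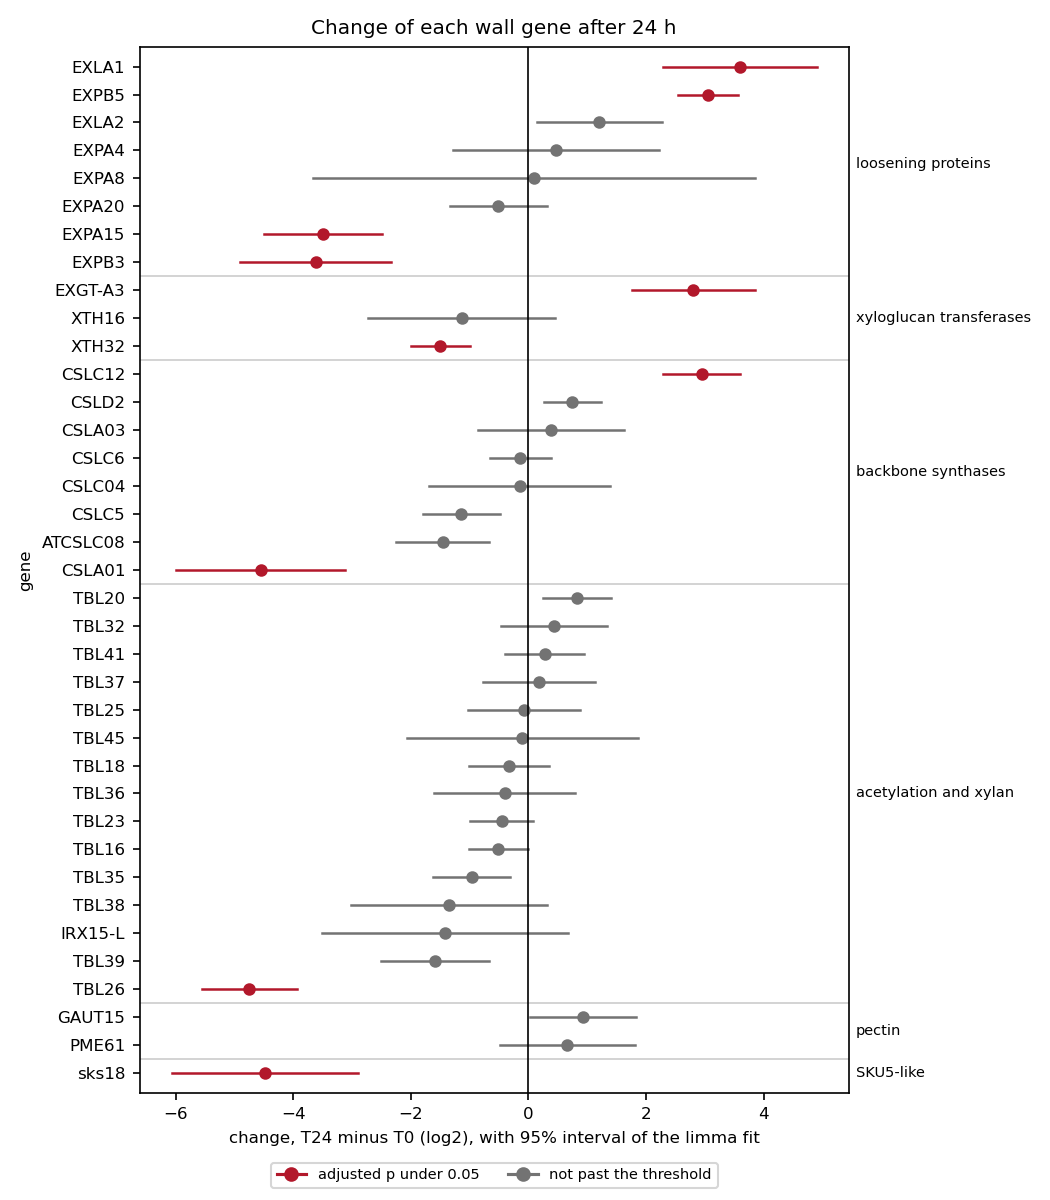
Change of each of the 37 judged wall genes (T24 minus T0, log2) with the 95% interval of the limma fit to 4 arrays, grouped by role; red marks an adjusted p under 0.05. The 4 genes that rose lie between 2.81 and 3.59, and 5 of the 6 that fell lie between -4.75 and -3.49. TBL genes other than TBL26 lie between -1.59 and 0.83.

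Among the loosening proteins, 8 of 18 genes were judged, of which 2 rose and 2 fell. That is 50%, beside the 19.3% of all judged genes, a difference that was not tested. EXLA1 (AT3G45970) encodes an expansin-like protein, a family that shares the domains of expansins and whose action on the wall is not established. It read 7.83 and 6.84 on the T0 arrays and 11.31 and 10.54 on the T24 arrays (replicates 1 and 2, log2). Both T24 arrays lay far above both T0 arrays, a rise of 3.59 ± 0.47 (SE), or 12.1-fold, with an adjusted p of 0.0257 in the limma fit. EXLA2, from the same family, read 5.67 and 6.60 at T0 and 7.19 and 7.49 at T24. Its groups did not overlap either, but the change of 1.21 ± 0.39 did not pass (95% interval 0.14 to 2.27; adjusted p 0.129). EXLA3, the last gene of the family, is named here after its values were seen, since its mean of 4.33 lay under the limit for judging. Its signal was 3.66 and 3.81 at T0 and 4.84 and 5.03 at T24, a difference of 1.21 ± 0.19 with an adjusted p of 0.0336. EXLA3 and EXLA1 are neighbours on chromosome 3, with 0 protein-coding genes between them. The changes of all 3 EXLA genes were thus positive, and those of EXLA1 and EXLA3 passed.

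The beta-expansins went opposite ways. EXPB5 (AT3G60570) read 6.21 and 6.18 at T0 and 9.35 and 9.16 at T24, with arrays of a group 0.03 and 0.18 apart. Its rise was 3.06 ± 0.18, or 8.32-fold (adjusted p 0.0143). EXPB3 (AT4G28250) was at 9.29 and 8.13 at T0 and at 4.89 and 5.30 at T24. It fell by 3.62 ± 0.47 (adjusted p 0.0249), and both T24 signals were close to the limit of 5. The other measured members, EXPB1 and EXPB2, had means under 5 and were not judged.

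Alpha-expansins are the family best known for the loosening of growing walls at acid pH. Of 10 measured EXPA genes 4 were judged, and EXPA15 (AT2G03090) was the one that passed. It read 9.61 and 8.94 at T0 and 5.47 and 6.10 at T24, a fall by 3.49 ± 0.36 (adjusted p 0.0187). EXPA4 read 8.72 and 8.62 at T0 but 8.27 and 10.00 at T24, and since the T24 arrays lay on either side of T0, the change of 0.46 ± 0.63 did not pass. EXPA20, at 5.51 ± 0.44 and 5.00 ± 0.22 (SD, n = 2 each), was low in both groups and did not pass (adjusted p 0.351).

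EXPA8 separated the arrays by replicate number rather than by time. It stood at 9.93 and 7.30 at T0 and at 10.11 and 7.31 at T24, and both replicate 1 arrays were higher than both replicate 2 arrays, by 2.64 at T0 and 2.80 at T24. Its change was 0.09 ± 1.36 with a 95% interval of -3.66 to 3.85, wide enough to hold a change as large as those of EXLA1 or EXPB3. The fit had no term for replicate number, so the gap between replicates widened this interval. EXPA8 is named after its values were seen.

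**Figure D2:**
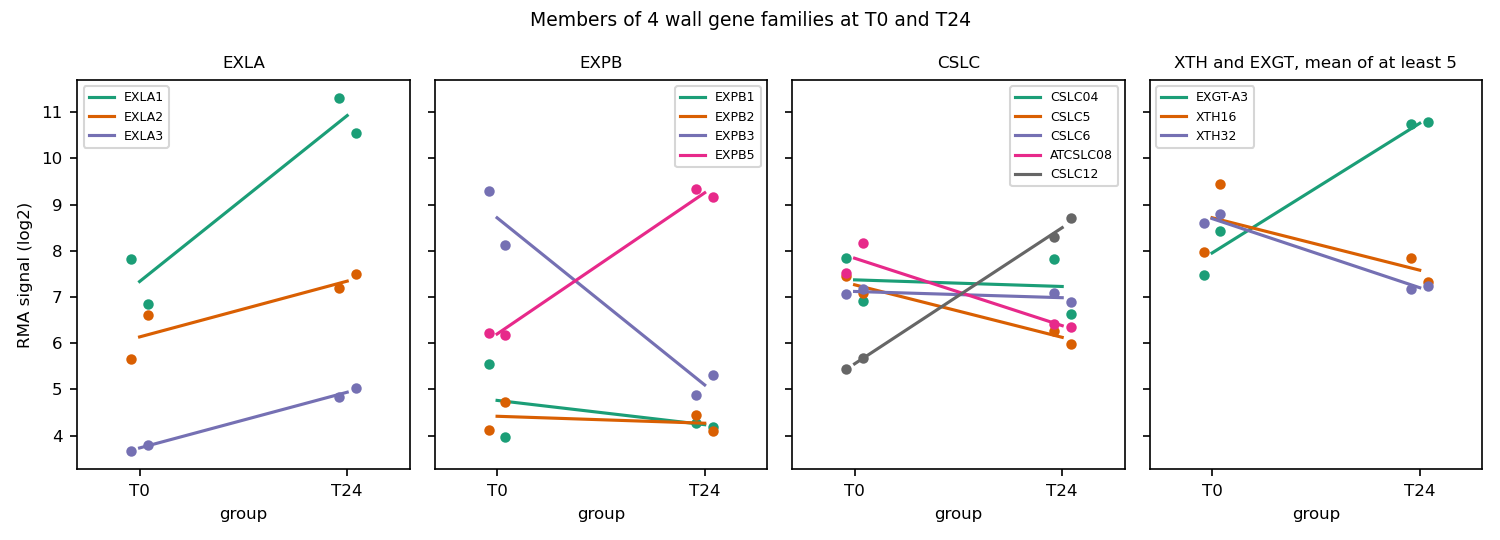
RMA signals (log2) of members of 4 families at T0 and T24; points are arrays (replicate 1 left, replicate 2 right) and lines join group means. The 3 EXLA genes all slope upward, whereas in EXPB, CSLC and the xyloglucan transferases 1 gene rises while others are lower or near level.

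Xyloglucan is handled by 2 of the measured families, the CSLC synthases that make its glucan backbone and the XTH enzymes that remodel it in the wall. In each, 1 gene rose. CSLC12 (AT4G07960) was low before holding, at 5.43 and 5.67, and read 8.29 and 8.70 after it. The rise of 2.95 ± 0.24 (7.71-fold) had an adjusted p of 0.0157. The other 4 CSLC genes had negative changes and none passed. ATCSLC08 stood closest, with 7.51 and 8.17 at T0 and 6.41 and 6.35 at T24, a change of -1.46 ± 0.29 (adjusted p 0.0513). CSLC5, with a change of -1.14 ± 0.24, was also just outside the threshold (adjusted p 0.0565), and its groups did not overlap. For CSLC6 the interval was -0.66 to 0.39, and for CSLC04 it was -1.68 to 1.40. The 95% interval of CSLC12, 2.29 to 3.61, overlapped none of those of the other 4 genes.

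EXGT-A3 (AT2G01850), a xyloglucan transferase also listed as XTH27, read 7.47 and 8.44 at T0 and 10.73 and 10.78 at T24. The T0 arrays differed by about 1 and the T24 arrays hardly at all. The rise was 2.81 ± 0.38 (adjusted p 0.0270). XTH32 (AT2G36870), of a subgroup for which hydrolysis rather than transfer was predicted, read 8.60 and 8.79 at T0 and 7.17 and 7.23 at T24. It was 2.82-fold lower at T24 (SE 0.18 on the log2 scale, adjusted p 0.0231), the smallest change among the 10 that passed. XTH16 read 7.98 and 9.45 at T0 and 7.84 and 7.32 at T24, and with T0 arrays that far apart its change of -1.13 ± 0.57 did not pass. The other 7 XTH genes had means under 5.

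Mannan is another backbone, and genes for its synthesis and acetylation stood on both sides of the threshold. CSLA01 (AT4G16590), of the family of mannan synthases, read 10.53 and 9.13 at T0 and 5.30 and 5.26 at T24. It fell by 4.55 ± 0.52 (adjusted p 0.0206), and the change was -3.85 without T0 replicate 1 and -5.25 without T0 replicate 2. CSLA03, from the same family, read 5.41 and 6.10 at T0 and 6.62 and 5.66 at T24, with overlapping groups and a change of 0.39 ± 0.45. TBL26 (AT4G01080) is one of the TBL proteins known to acetylate mannan. It read 10.56 and 10.05 at T0 and 5.78 and 5.33 at T24, and fell by 4.75 ± 0.29 (adjusted p 0.0143). TBL23 and TBL25, named here for the same activity as TBL26, changed by -0.45 ± 0.20 and -0.07 ± 0.35, and neither passed.

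Other TBL genes showed smaller differences. TBL26 was the only one of its 14 judged genes to pass, or 7.14% of them, beside the 19.3% of all judged genes. The changes of the other 13 ran from -1.59 to 0.83. Over all 14, 10 changes were negative and 4 positive, with a median of -0.37, against -0.05 for all judged genes. TBL39 read 9.66 and 9.59 at T0 and 8.44 and 7.64 at T24; its change of -1.59 ± 0.33 was just outside the threshold (adjusted p 0.0563). TBL20, the judged gene nearest to the limit with a mean of 5.11, read 4.73 and 4.66 at T0 and 5.69 and 5.36 at T24, while EXPA9, with a mean of 4.65, was the nearest one below it. TBL35, known for acetylating xylan, had a change of -0.97 ± 0.24 (adjusted p 0.0773). TBL32, a xylan acetyltransferase as well, had overlapping groups, and its probe set is of a type that can bind several related transcripts. IRX15-L, which acts with its close relative IRX15 in xylan synthesis, read 6.87 and 4.83 at T0 and 4.69 and 4.16 at T24. Replicate 1 at T0 stood apart for this gene, and the change of -1.42 ± 0.76 did not pass; IRX15 itself had a mean of 4.38.

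Few further genes had signal. CSLD2, needed for normal root hair growth, read 7.29 and 7.16 at T0 and 7.99 and 7.95 at T24, with a change of 0.75 ± 0.18 that did not pass (adjusted p 0.0722). GAUT15, of the galacturonosyltransferase family of pectin synthesis, averaged 6.23 ± 0.54 when fresh and 7.16 ± 0.15 after holding (SD, n = 2 each; adjusted p 0.157). PME61, a pectin methylesterase, was at 6.07 ± 0.14 and 6.73 ± 0.75 (SD, n = 2 each; adjusted p 0.391). The SKU5-like proteins resemble multicopper oxidases, and the function of most is unknown. Of 3 measured SKS genes, sks18 (AT1G75790) was judged. It read 9.06 and 7.50 at T0 and 3.74 and 3.86 at T24, a signal clear at T0 and under the limit of 5 after 24 h. It fell by 4.48 ± 0.57 (adjusted p 0.0248), and the change was -3.70 without T0 replicate 1 and -5.26 without T0 replicate 2.

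**Figure D3:**
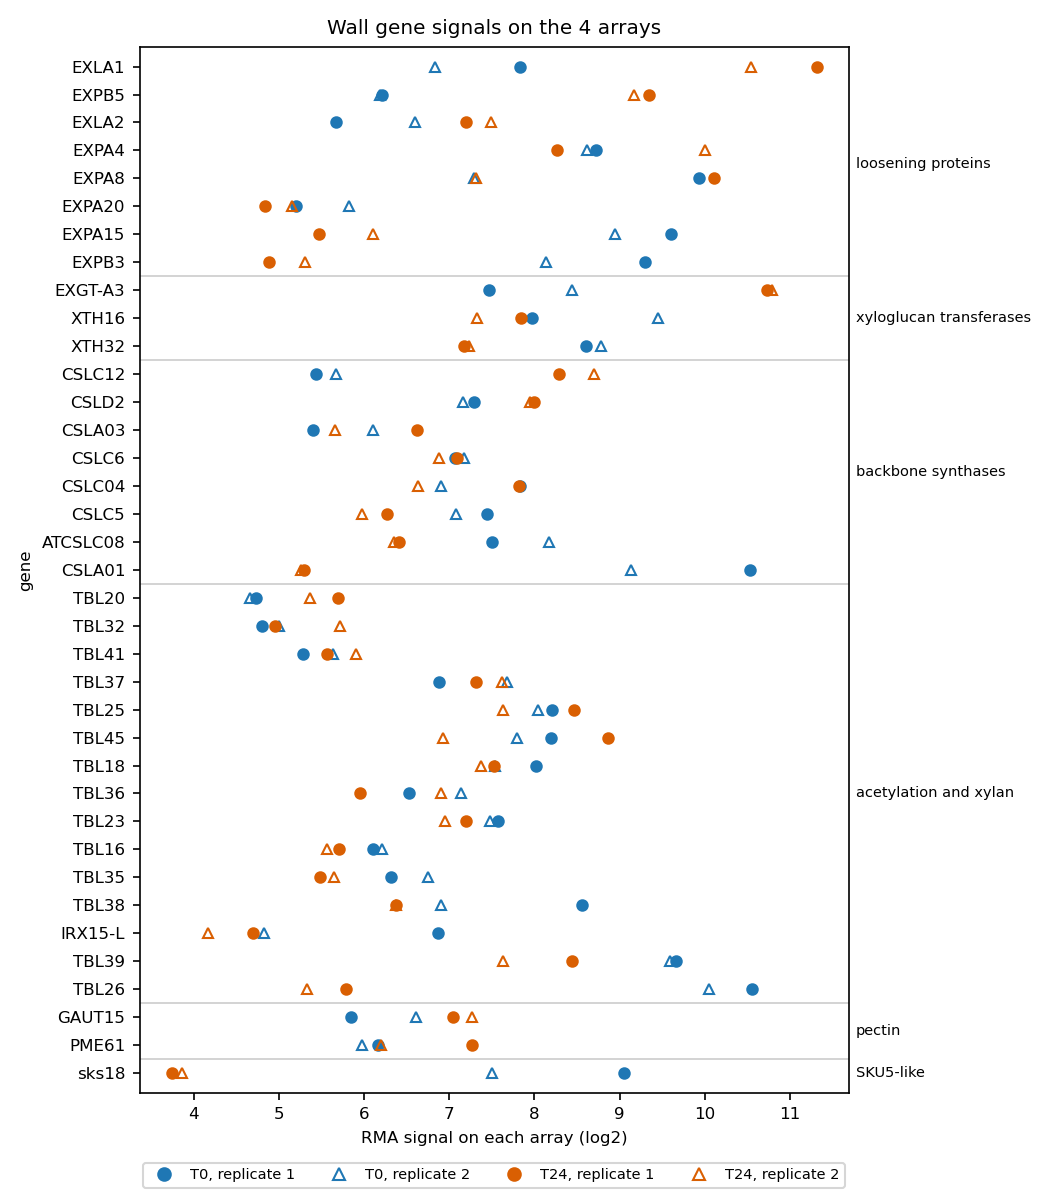
RMA signal (log2) of the 37 judged wall genes on each of the 4 arrays; blue is T0, orange is T24, filled circles are replicate 1 and open triangles replicate 2. The T0 and T24 symbols lie far apart for EXLA1, EXPB5, CSLC12 and EXGT-A3 on one side and for TBL26, CSLA01, sks18, EXPB3 and EXPA15 on the other; signals of different genes are not comparable in level.

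The 28 measured wall genes under the limit had means of 3.38 to 4.65. Changes ran from -0.53 to 1.21, and 26 of the 28 were smaller than 0.6 in size; EXLA3 was the 1 that passed. Among them were EXPA7 and EXPA18, expansins of root hairs, with means of 3.79 and 4.33. Changes between signals this low may be compressed toward 0, so a small change there does not show that the transcript did not change. Neighbouring pairs other than EXLA3 and EXLA1 all fell in this low class: TBL28 with TBL30, XTH18 with XTH19, and TBL21 with TBL19. For EXLB1, the single gene measured under an EXLB symbol, the mean was 4.23 and the change -0.07 ± 0.24.

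**Figure D4:**
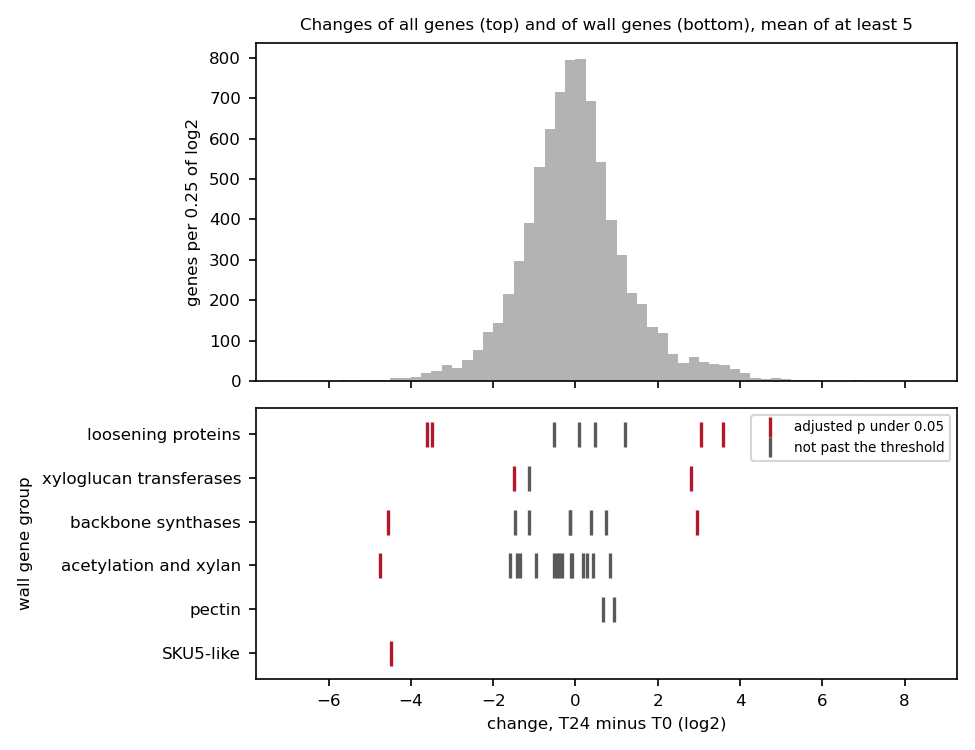
Top, numbers of genes per 0.25 of change (T24 minus T0, log2) among the 7920 genes with a mean of at least 5; bottom, the 37 judged wall genes by role, red where the adjusted p was under 0.05. Wall genes that passed lie in both tails, with 4 on the right between 2.81 and 3.59 and 5 on the left between -4.75 and -3.49, and XTH32, which also passed, lies further in at -1.50. TBL and pectin genes that did not pass lie between -1.59 and 0.93.

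Of 94 other listed wall genes in 10 lists, 7 were measured by name, 1 of which, CSLC04, also belongs to the families above. None of the 7 passed in limma, and 2 had an unadjusted p under 0.05, so these lists describe little of the pathway. COB, which orients cellulose deposition, had a change of -1.28 ± 0.47. GUT1, a xylan backbone synthase, read 8.45 and 8.26 at T0 and 7.40 and 7.76 at T24 (change -0.77 ± 0.23, adjusted p 0.109). The receptor kinase FER, which monitors the wall, read 9.46 and 9.64 at T0 and 10.11 and 10.57 at T24 (change 0.79 ± 0.24, adjusted p 0.120). ADPG1, a polygalacturonase of anther and pod opening, was higher on replicate 1 in both groups (6.51 against 4.18 at T0 and 5.88 against 4.90 at T24). The lists for nucleotide sugars, callose, lignin, wall glycosidases and regulators had 0 measured genes.

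The arrays hold RNA of whole inflorescences, so fewer cells of a type and less RNA per cell cannot be told apart. Of the listed bud markers 5 of 11 were measured; SPL, SPT and INO had means over 5, UFO and CLV3 had means of 4.12 and 3.56, and none of the 5 passed. Of the 14 listed markers of the tapetum, the anther's nourishing layer, 4 were measured. SHT and ATA27 fell, A9 and AMS did not pass, and 0 had a mean under 5. The summed linear signal of the 4 was 13701 and 4399 at T0 and 1825 and 368 at T24. The largest part came from ATA27 at T0 and at T24 from A9, whose groups overlapped. Signals of different genes are not comparable in level, so such sums follow the brightest gene and do not measure amounts of tissue. Of the 8 listed pollen markers 2 were measured, AT59 and AT5G45880, and both rose. Their summed signal was 2127 and 1099 at T0 and 8050 and 8707 at T24, most of it from AT5G45880. The root marker PYK10 stood between 3.73 and 3.91 on all 4 arrays. The 1 measured seed marker, PAP85, read 3.27 and 4.32 at T0 and 12.36 and 11.61 at T24, a rise of 8.19 ± 0.48 (adjusted p 0.0143). The part of these cell types in the wall gene changes was not tested.

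At T0 the replicate 1 array was higher than replicate 2 for several genes that fell, by 1.56 for sks18, 1.40 for CSLA01, 1.16 for EXPB3 and 0.67 for EXPA15. The same difference was 2.00 for A9, 1.71 for ATA27, 0.94 for SHT and 0.46 for AMS. Between the T24 arrays it was -0.11 for sks18, 0.03 for CSLA01, -0.42 for EXPB3 and -0.63 for EXPA15. For the tapetum markers at T24 it was 2.85 for A9, 1.52 for ATA27, 0.36 for SHT and 0.49 for AMS. The T0 difference was also positive for some genes that rose or did not pass, at 0.99 for EXLA1, 2.04 for IRX15-L and 1.65 for TBL38. For the pollen markers it was 0.98 (AT5G45880) and 0.41 (AT59). Other genes had a negative difference, at -0.97 for EXGT-A3 and -0.24 for CSLC12, which rose. Among genes that did not pass it was -1.48 for XTH16 and -0.94 for EXLA2. For TBL26 it was 0.50 and for XTH32 -0.18. Among the 37 judged wall genes, 7 differed by more than 1 between the T0 arrays and 5 between the T24 arrays. Over all 7920 judged genes these counts were 1109 and 848. For the wall genes the median size of the replicate difference was 0.50 at T0 and 0.33 at T24, against 0.42 and 0.36 for all judged genes.

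**Figure D5:**
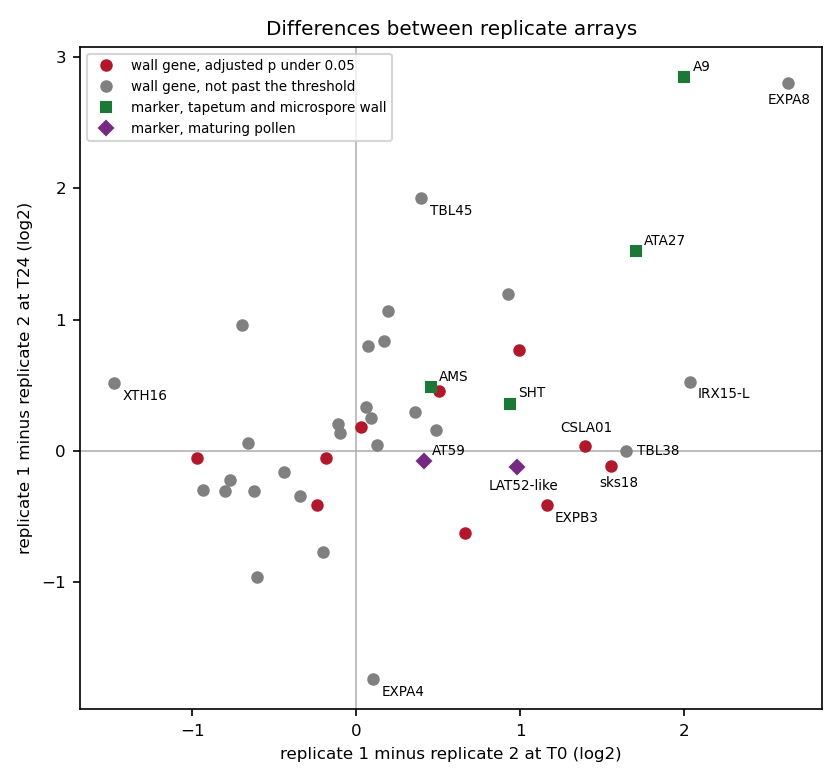
Replicate 1 minus replicate 2 at T0 (horizontal) and at T24 (vertical), both log2, for the 37 judged wall genes (circles, red where the adjusted p was under 0.05) and for tapetum (squares) and pollen (diamonds) markers. EXPA8 lies beside the tapetum marker A9 at the upper right; sks18, CSLA01 and EXPB3 lie to the right, with T24 differences between -0.42 and 0.03.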

How the data were processed

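RNA of 4 samples was measured on Affymetrix arrays. The authors deposited 1 table of log2 values for 22746 probe sets, and per the submitters' processing notes the tool was RMA, of no stated version. Base 2 was inferred from what RMA normally writes and from the size of the values. Array medians ran from 6.08 to 6.29, no further scaling was applied, and the number of arrays limits the precision. The platform annotation pairs 13513 of them with 1 gene, 503 with several and 8730 with none; names were updated by gene identifier in RefSeq (13436 matched). Each gene was represented by its probe set of highest mean; all 65 wall genes had 1 probe set.

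The difference T24 minus T0 was estimated for every one of the 22746 probe sets with limma 3.58.1 (lmFit, eBayes) in R 4.3.3, without covariates. P-values were adjusted by Benjamini and Hochberg over all probe sets, and SEs and 95% intervals are those of this moderated fit. Arrays of a group are given in the order replicate 1, replicate 2.

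The wall genes and lists were chosen with earlier results of these data known. Genes named are every judged wall gene that passed, in each family the one of highest mean and the one of largest change that did not pass, those nearest the limit of 5, and the brightest measured gene of other lists; any others were named after their values were seen. Alternatives included a block on replicate number, other variance models, scalings, filters and limits, and leaving out each array.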

Additional observations from a re-analysis of the deposited data

How the results depend on the processing

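The 10 wall genes that passed also passed, in the same direction, with an intensity trend, robust variances, quantile scaling, median centring, the filter at a mean of 5, 1 probe set per gene and an added 2-fold limit. Those settings gave 4 higher and 6 to 8 lower, the additions being TBL39 (trend, quantile scaling and filter) and ATCSLC08 (median centring and filter). Judging at a mean of 4 gave 5 higher, adding EXLA3, and at a mean of 6 it gave 4 higher and 6 lower. Median centring moved the wall genes' median change to 0.01, so its sign rests on the scaling; it also moved the share of calls that were higher, over all probe sets, to 58.2%. With a replicate block in the fit, 7 wall genes were higher and 10 lower, among them the same 10 (gained were CSLD2, EXLA2 and TBL20, higher, and ATCSLC08, CSLC5, TBL35 and TBL39, lower), and 6528 of 22746 probe sets passed against 3010. Replicate differences at T0 and T24 correlated at 0.63 over all probe sets, at 0.69 over all judged genes and at 0.39 over the 37 judged wall genes. Yet no label ties a replicate number to a shared batch, and the pairs number 2. Testing 1 probe set for each gene left 1636 of 13356 past the threshold, the number tested being smaller. Leaving out any 1 array left 0 probe sets, 0 wall genes and 0 named genes past the threshold in limma, few degrees of freedom remaining, with 4888 to 5942 probe sets at an unadjusted p under 0.05; the wall genes' median change then ran from -0.49 to -0.19, lowest without T24 replicate 1.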
